A study of Arabidopsis thaliana with 48 samples.

Results

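RNA sequencing of Arabidopsis thaliana seedlings was used to describe 63 genes of 32824 whose transcript level in the wild type Col0 was low in heat but not in high light or salt. The members were chosen from the group means of log2(FPKM + 1) in Col0, where FPKM counts sequenced fragments after correction for transcript length and library size, so the values that chose them are given as description. A member lay at least 0.8 below Control in heat (HS) and also in high light with heat (HL+HS), and above -0.3 in high light (HL) and in salt (S). There were 646 genes that met both heat conditions, of which 583 missed the HL or the S condition.

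The series held 48 libraries of 7-day-old seedlings, from Col0 and from a mutant of the transcription factor gene bHLH35, each under 8 treatments with 3 libraries per group. Control seedlings grew without salt at 21 °C and a light intensity of 150 µE. The S groups grew on medium with 50 mM salt, HL was 700 µE and HS was 33 °C, and both were applied for 1.5 h to seedlings grown with or without salt, giving S+HL, S+HS, HL+HS and S+HL+HS. The labels do not name the mutant allele or say whether libraries came from separate cultures, so p-values measure the spread between these libraries.

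Plants meet heat with a rapid gain of heat shock proteins and a loss of many other transcripts. Iron uptake by Arabidopsis roots uses a reduction step, in which FRO2 turns ferric into ferrous iron, followed by import through IRT1. The factor FIT, together with bHLH38, bHLH39 and their relatives, switches on both genes when iron is short. Membrane lipids are also adjusted to temperature, with fewer trienoic fatty acids in warm-grown leaves.

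Depth was estimated at 19.3 to 43.8 M fragments per library (M, mega), and 3 fragments corresponded to 0.0685 to 0.155 FPKM for a transcript of 1 kb. The mutated gene stood at 3.28 to 14.6 FPKM over the 24 mutant libraries and at 20.9 to 95.3 in Col0. Seedlings were sequenced whole, so fewer cells of a type and less RNA per cell cannot be told apart.

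The HL libraries of a group did not resemble each other in 1 respect that touches the members. The summed FPKM of 8 heat response genes was 87.1 to 95.5 in Col0 Control and 7590 to 16380 in Col0 HS, yet it was 1299, 2306 and 7452 in the HL libraries. The median member stood at 0.27, -0.14 and -0.43 on the log2 scale against Control in those same libraries. HL thus met the rule as a mean over libraries that ran from above to below Control.

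The same order was present in groups that the rule did not use. In mutant HL the heat response genes summed to 855.5, 4880 and 8274 FPKM, and the median member stood at 0.19, -0.13 and -0.32 against mutant Control. In mutant S+HL the sums were 728.2, 2350 and 4984 FPKM, and the medians were 0.42, 0.23 and 0.00. In Col0 S+HL the sums were 537.3, 1860 and 3964 FPKM, and the medians were 0.21, 0.03 and -0.12. In all of these groups replicate 1 had the least heat response transcript, and it was the highest of the 3 libraries for 49 members in mutant HL, 47 in mutant S+HL and 43 in Col0 S+HL. Over all genes tested, 44.9%, 39.8% and 37% were highest in that library. Same-numbered libraries of Col0 HL and mutant HL deviated from their group means with a correlation across genes of 0.401, 0.0114 and 0.367 for replicates 1, 2 and 3. The part that the level of heat response genes in HL plays in the members' levels was not tested.

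**Figure D1:**
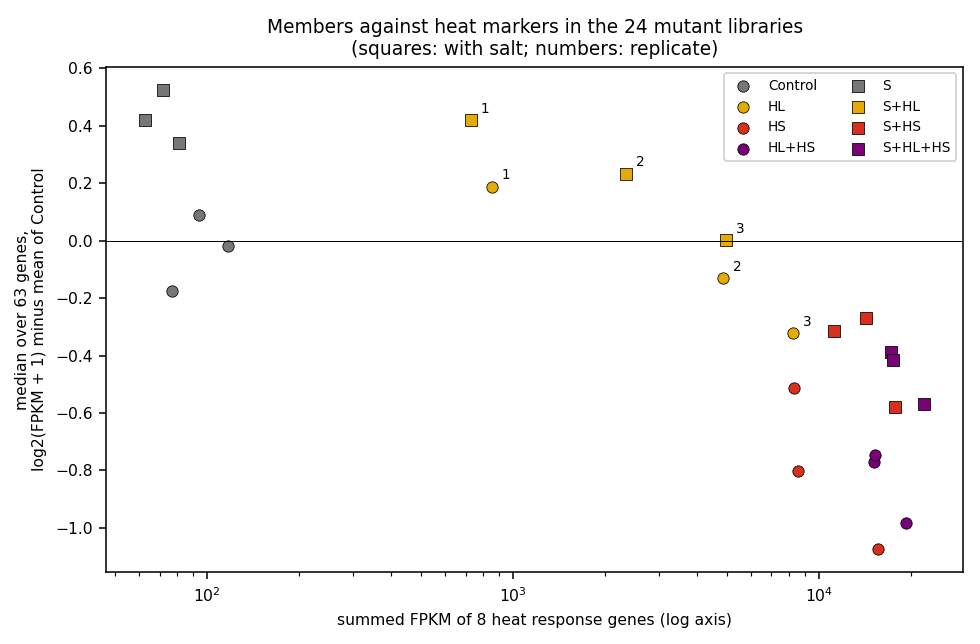
Median of the 63 members against mutant Control (log2, vertical axis) plotted against the summed FPKM of 8 heat response genes (log axis) in each of the 24 mutant libraries, with numbers naming the replicates of HL and S+HL. The HL and S+HL libraries span 728.2 to 8274 FPKM, and within each of these groups the median member is lowest where the sum is highest.

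The membership itself depended on these libraries. Without Col0 HL replicate 1 the rule gave 38 genes, and without Col0 HL replicate 3 it gave 114. Only 5 genes met it whichever library of the 5 groups was left out, namely FRO2, GSTU24, OPR2, AT3G13480 and FAD8. The members closest to the heat limit were KNAT5 at -0.81, AT4G11410 at -0.82 and AT4G15450 at -0.83 in HS, while AT1G77520, AT2G40200 and AT1G55265 lay just outside at -0.798, -0.798 and -0.797.

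The members comprised 58 protein-coding genes, 4 long noncoding RNAs and 1 microRNA precursor. They were spread over all chromosomes, with 16 on chromosome 1, 5 on chromosome 2, 15 on chromosome 3, 18 on chromosome 4 and 9 on chromosome 5. The neighbouring bHLH38 and bHLH39 were the one adjacent pair. Their median spliced length of 1676 bases lay next to the 1685 of genes tested in Col0, and 23.8% had a single exon, against 16.5%. Another annotated gene overlapped 19 members, and since the strand setting of the counting is not given, reads of such pairs cannot be told apart.

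The sequences upstream of 4 members are shown because IRT1 and FRO2 had the largest rises of all members in mutant salt, and FAD8 and CAM9 were called lower in every heat comparison outside the rule. Each runs 5′ to 3′ on the gene's strand up to the base before the annotated transcript start in RefSeq TAIR10.1. Capitals mark a searched motif, and the FAD8 stretch is limited to the bases that do not overlap its neighbour. They lie at chr4:10707094-10707343 (plus strand) for IRT1, chr1:208745-208994 (plus) for FRO2, chr5:1663930-1664039 (plus) for FAD8 and chr3:19269659-19269908 (minus) for CAM9.
IRT1: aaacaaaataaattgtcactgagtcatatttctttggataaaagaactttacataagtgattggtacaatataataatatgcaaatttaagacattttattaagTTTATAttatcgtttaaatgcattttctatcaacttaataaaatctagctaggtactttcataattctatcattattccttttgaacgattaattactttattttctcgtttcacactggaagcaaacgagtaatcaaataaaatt
FRO2: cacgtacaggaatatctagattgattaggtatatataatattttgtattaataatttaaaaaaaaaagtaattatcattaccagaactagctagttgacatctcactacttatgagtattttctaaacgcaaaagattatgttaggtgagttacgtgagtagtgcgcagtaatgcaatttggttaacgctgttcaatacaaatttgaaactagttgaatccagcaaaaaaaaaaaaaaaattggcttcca
FAD8: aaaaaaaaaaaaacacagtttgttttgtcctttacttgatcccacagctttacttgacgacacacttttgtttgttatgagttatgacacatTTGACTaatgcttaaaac
CAM9: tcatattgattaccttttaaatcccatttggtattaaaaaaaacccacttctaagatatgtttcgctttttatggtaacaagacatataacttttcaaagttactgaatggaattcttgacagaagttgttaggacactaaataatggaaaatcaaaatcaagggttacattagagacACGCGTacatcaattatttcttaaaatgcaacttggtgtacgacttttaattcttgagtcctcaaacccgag

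The capitals in IRT1 are TATAAA read on the opposite strand, those in FAD8 are the W-box TTGACT, and those in CAM9 hold the CGCG box, CGCGT, on both strands. Each motif was searched on both strands in 250 bases upstream of all 63 members and of 20605 tested genes. TTGACT lay upstream of 25.4% of members and 18.7% of all genes, and the related TTGACC of 17.5% and 12.2%. TATAAA was found for 36.5% of members and 45.7% of all genes, and CGCGT for 4.76% and 7.31%. The site II letters TGGGCC were found for 7.94% of members and 16% of all genes, and TGGGCT for 3.17% and 13.9%. These shares are descriptions with no test.

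In Col0 HS the members ranged from -2.75 for IRT1 to the limit, with a median of -1.02. Under HL+HS the median was -0.98, and in HL and S it was -0.12 and 0.13. Adding salt to heat kept most members low in Col0. In S+HS the median was -0.82 against Control and 58 of 63 lay below 0, where 44.2% of all genes tested did. In S+HL+HS the median was -0.56 and 59 of 63 lay below 0, against 44.3% of genes. These values share the Control libraries with the rule and carry no test.

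**Figure D2:**
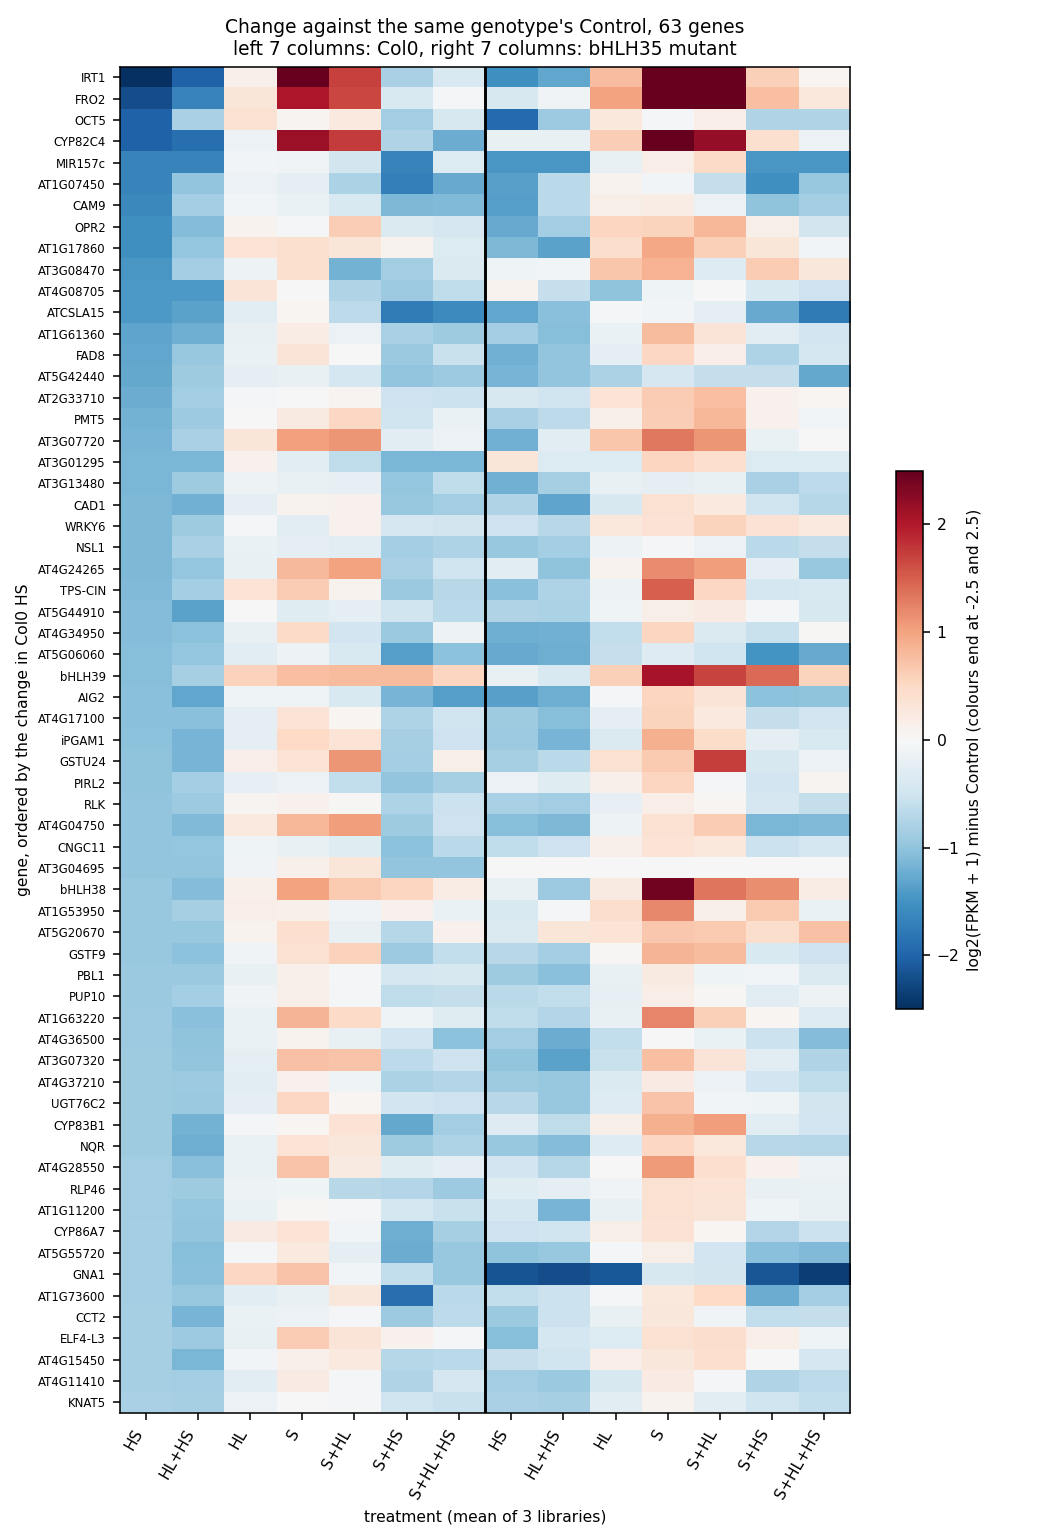
Change of log2(FPKM + 1) against Control of the same genotype for the 63 members (rows, ordered by Col0 HS) in 7 treatments of Col0 (left) and of the bHLH35 mutant (right), each the mean of 3 libraries. Blue runs through the heat columns of both genotypes for most members, least in mutant S+HS. IRT1, FRO2, CYP82C4, bHLH38 and bHLH39 turn red in the salt columns without heat. bHLH38 and bHLH39 also lie above Control in S+HS and S+HL+HS of both genotypes.

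The mutant table, which the rule did not use, was tested with limma on 24 libraries. In mutant HS 39 of the 63 members fell and none rose at an adjusted p under 0.05, where 14.8% of all genes tested were called lower and 14.1% higher. The median member stood at -0.83 against -0.02 for all genes. Without mutant HS replicate 1, whose heat response sum of 15650 FPKM exceeded the 8299 and 8577 of the other libraries, 23 members were called beside 13.3% of genes. The 23 tested members that were not called had a median of 2.66 FPKM in mutant Control, against 13.8 for the called ones, and 1 member did not pass the filter on low values.

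With high light added, 36 members fell in mutant HL+HS, beside 24.7% of all genes. The median of all genes was itself -0.15 there. Under median-of-ratios scaling, which brings that median to 0.01, 28 members were called lower beside 14.7% of genes, and the median member moved from -0.83 to -0.65. No member was called in limma's interaction test of the heat change with and without high light, where 4.03% of all genes were. The smallest limma adjusted p of a member was 0.078. At an unadjusted p under 0.05 there were 9, beside 18.7% of all genes.

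Heat was also compared on a salt background. Against mutant S, 39 members fell in mutant S+HS, beside 14.3% of all genes, and the median member stood at -0.95. Against mutant S+HL, 28 fell in mutant S+HL+HS, beside 8.15%, with a median of -0.71. Without mutant S+HL replicate 1, which had the least heat response transcript of its group, 9 were called beside 2.05%, and without S+HL+HS replicate 1 there were 14 beside 2.67%. The same comparison in Col0, the one test in that table, contrasted groups that the rule did not use. Its estimate of the spread came from all 24 Col0 libraries, those used by the rule included. This test called 28 members lower beside 5.63% of all genes. That count was 14 beside 3.11% without Col0 S+HL replicate 1, 18 beside 2.84% without S+HL replicate 2 and 18 beside 3.27% without S+HL+HS replicate 1.

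These 4 heat comparisons (mutant HS, mutant S+HS against S, and S+HL+HS against S+HL in each genotype) have no contrasted library in common. Those in the mutant share an estimate of the spread. In all 4 comparisons 15 members were called lower, or 23.8%, against 1.33% of the genes tested throughout. Another 11 were called in 3, as were 2.81% of genes, and 10 in none, as were 74.3%. Shares of members are of all 63, and the 10 include AT3G04695, which was not tested in the mutant. The 15 are named here because they were seen to pass: IRT1, FAD8, CAM9, OCT5, iPGAM1, CAD1, NQR, AIG2, ATCSLA15, AT1G63220, AT3G07320, AT3G07720, AT4G04750, AT4G17100 and AT5G06060. IRT1, FAD8, CAM9, OCT5, AT3G07720, AT4G04750 and AT5G06060 were followed under other settings in mutant HS and in Col0 S+HL+HS against S+HL. Under at least 1 setting IRT1 and AT4G04750 lost the call in the former, and OCT5 and AT5G06060 in the latter. The 583 genes that were low in heat but missed the HL or S condition were called lower for 60.9% in mutant HS, and for 31.7% in mutant HL, where 4 members (6.35%) were.

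**Figure D3:**
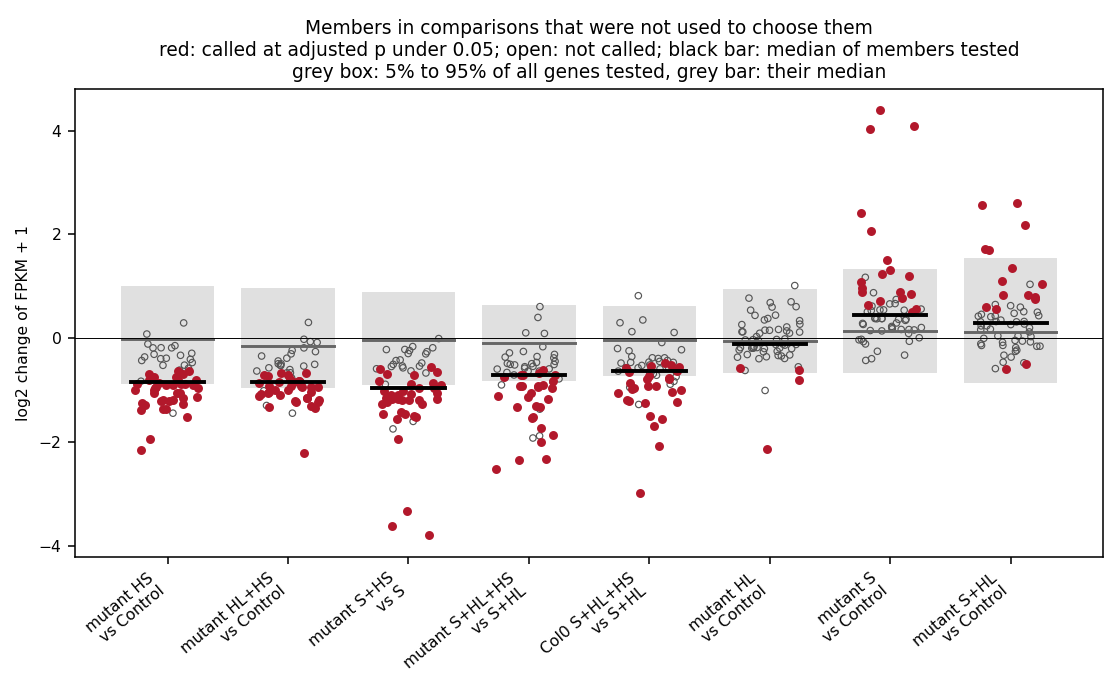
Log2 change of each tested member (points) in 8 comparisons that were not used to choose them, red where the limma adjusted p was under 0.05, with black bars for the member median and grey boxes for the range from 5% to 95% of all genes tested. The median tested member lies between -0.64 and -0.96 in the heat comparisons and above the median gene in salt.

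FAD8 (AT5G05580), a plastid omega-3 desaturase that makes trienoic fatty acids, was called lower in all heat comparisons tested. Its Col0 levels were 64.7, 79.5 and 78.7 FPKM in Control and 28.3, 29.5 and 30.6 in HS. In the mutant they were 60.8, 73.0 and 73.3 in Control and 30.2, 32.6 and 25.4 in HS. Every heat library lay below every Control library in both genotypes. The mutant change was -1.21 (SE 0.14, limma adjusted p 2.44e-06). On salt, mutant FAD8 went from 100.1, 92.4 and 102.5 FPKM in S to 42.7, 33.8 and 44.5 in S+HS, a change of -1.27 (SE 0.14, limma adjusted p 2.12e-06). It was also higher in mutant S than in Control, by 0.51 (SE 0.14, limma adjusted p 0.00972).

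CAM9 (AT3G51920), a calmodulin-like calcium sensor, repeated the falls in heat at similar levels. Its change of 0.18 in mutant S was not called (limma adjusted p 0.518). It stood at 95.9, 82.8 and 77.7 FPKM in Col0 Control and 32.6, 22.9 and 26.4 in HS. Mutant Control libraries gave 62.9, 81.9 and 69.9 FPKM, and mutant HS gave 33.3, 29.9 and 19.01, with no overlap between the groups. CAM9 fell by 1.38 in mutant HS (SE 0.19, limma adjusted p 1.44e-05) and by 1.18 in S+HS against S (SE 0.19, limma adjusted p 9.71e-05).

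OCT5 (AT1G79410) belongs to the organic cation and carnitine transporters and had the second-largest fall in mutant HS. Its levels were 19.9, 23.3 and 29.9 FPKM in mutant Control and 5.495, 6.05 and 5.03 in mutant HS. The change of -1.94 (SE 0.24, limma adjusted p 6.15e-06) sat beside a Col0 description of -2.02. Its levels were 12.1, 11.97 and 12.9 FPKM in mutant HL+HS and 11.7, 14.5 and 16.1 in S+HS, all above those of HS and below those of Control. The fall against S was -0.71 (SE 0.24, limma adjusted p 0.0349), and the difference between the heat changes with and without salt, 1.23, was not called.

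GNA1 (AT5G15770), an acetyltransferase of the pathway to UDP-N-acetylglucosamine, had the largest fall, but it lies wholly inside PSRP3/2 on the other strand. Its mutant libraries gave 6.66, 15.8 and 7.47 FPKM in Control and 0.0230, 5.60 and 0.851 in HS. The spread among heat libraries was wide, although all lay below Control. The change was -2.15 (SE 0.71, limma adjusted p 0.0276). HL gave -2.13 (SE 0.71, limma adjusted p 0.0438), so GNA1 was called lower in mutant HL as well. Those HL libraries were also uneven, at 0.0001, 5.75 and 0.940 FPKM. The HS call was lost with a pseudocount of 0.1 (limma adjusted p 0.0897), with the contrasted groups alone (0.0554), and without Control replicate 2 (0.113) or HS replicate 1 (0.13) or 3 (0.0855).

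AT5G06060, annotated as an NAD(P)-binding reductase, went from 58.5, 62.9 and 59.4 FPKM in mutant Control to 23.7, 28.2 and 22.4 in HS, a fall of 1.26 (SE 0.19, limma adjusted p 6.38e-05). The related AT1G07450 fell by 1.36 (SE 0.34, limma adjusted p 0.00513), a call lost with the contrasted groups alone (0.0594). OPR2, a reductase of the oxophytodienoate type, fell by 1.27 (SE 0.29, limma adjusted p 0.00222), but it overlaps its close relative OPR1 on the same strand, so reads of the pair could be split. AT5G06060 also fell in mutant HL, by 0.58 (SE 0.19, limma adjusted p 0.0449), with AT4G34950, a major facilitator transporter, at -0.61 (SE 0.20, limma adjusted p 0.0426). AT5G42440, a protein kinase, fell in HL by 0.80 (SE 0.22, limma adjusted p 0.014), and with GNA1 these made up the 4 members called in HL, beside 9.29% of all genes. That count was 1 without any single mutant Control library or without HL replicate 2 or 3, beside 5.47% to 6.54% of genes, and 7 without HL replicate 1, beside 10.8%.

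The most abundant member, GSTF9 (AT2G30860), a glutathione S-transferase chosen here after its values were seen, had uneven heat libraries. It stood at 381.2, 304.7 and 276.6 FPKM in mutant Control and at 115.9, 321.8 and 205.5 in HS, so the groups overlapped. The change of -0.69 was not called in mutant HS, and it fell by 1.23 in S+HS against S (SE 0.31, limma adjusted p 0.00568). In Col0 S+HL+HS it was 326.9, 293.5 and 291.5 FPKM against 719.8, 704.7 and 652.9 in S+HL, with no overlap and a change of -1.19 (SE 0.23, limma adjusted p 0.00229). iPGAM1 (AT1G09780), a phosphoglycerate mutase of glycolysis also named after its values were seen, fell by 0.91 in mutant HS (SE 0.24, limma adjusted p 0.00639).

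The members held 3 of 248 cytochrome P450 genes (1.21%) and 1 of 131 UDP-glycosyltransferases (0.763%), beside 0.192% of all genes, a description with no test. CYP83B1, an enzyme of indole glucosinolate synthesis, was at -0.33 in mutant HS and overlapped Control. It fell in mutant S+HS against S by 1.15 (SE 0.29, limma adjusted p 0.00692) and in Col0 S+HL+HS against S+HL by 1.22 (SE 0.28, limma adjusted p 0.00783). UGT76C2, which attaches glucose to cytokinins, fell by 0.69 in mutant HS (SE 0.16, limma adjusted p 0.00259). CYP86A7, a member of a fatty acid hydroxylase family, reached 1.82 FPKM at most in mutant Control and was not called in mutant HS.

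**Figure D4:**
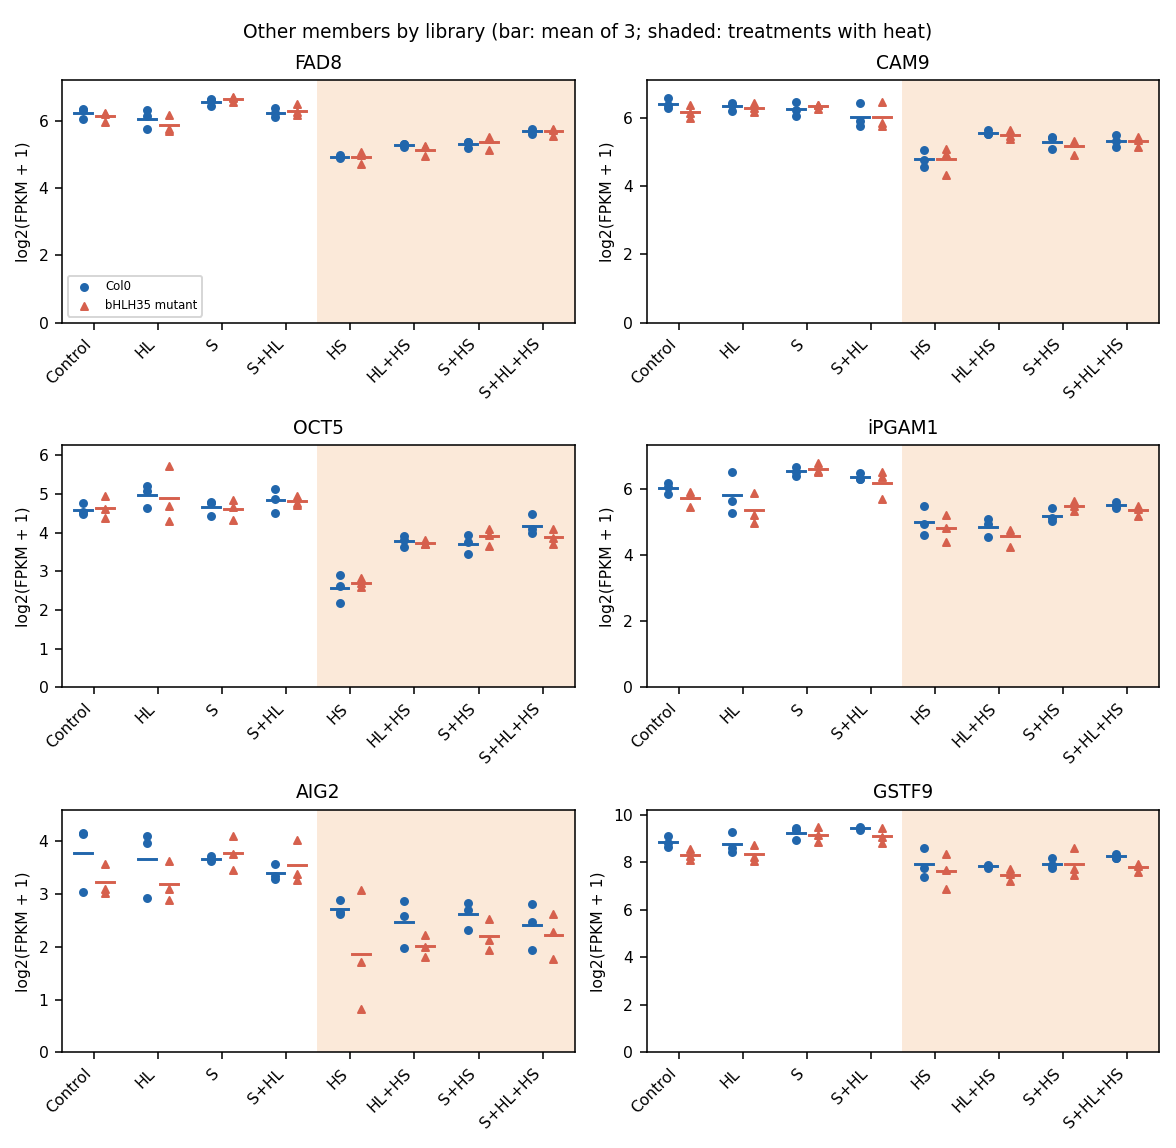
Log2(FPKM + 1) of 6 members in each library (points) of Col0 (blue circles) and the bHLH35 mutant (red triangles) in 8 treatments, with bars for means of 3 and shading for treatments with heat. FAD8 and CAM9 step down in every shaded group, while AIG2 and GSTF9 have a mutant HS library that reaches the level of Control.

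Several members encode transcription factors. KNAT5, a KNOX homeobox factor and the most abundant, was at 26.9, 29.8 and 27.3 FPKM in mutant Control and 14.8, 15.7 and 16.1 in HS. All heat libraries lay below Control, with a fall of 0.81 (SE 0.13, limma adjusted p 0.000124). WRKY6, a regulator of senescence and phosphate responses, was at -0.52 in mutant HS and was not called, though it fell by 0.70 in HL+HS (SE 0.22, limma adjusted p 0.018). AT2G33710, of the ERF family, ELF4-L3, a relative of the clock component ELF4, and AT4G24265, annotated as a homeobox protein, had mean levels of at most 4.40 FPKM in Col0 Control. Of these, ELF4-L3 alone was called in mutant HS, at -1.06 (limma adjusted p 0.011), and not with the contrasted groups alone (0.0589) or without Control replicate 3 (0.0751).

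Among wider lists of genes, no member belonged to the lists for cold and CBF factors, mitosis, immunity and salicylic acid, NLR immune receptors, ribosomal proteins or histones. These lists held 14 to 344 genes and members made up 0.192% of all genes, so their absence says little. Histones did occur among the other genes low in heat, with 17 of 53, beside 583 of all 32824 genes. Receptor-like kinases held 2 members of 408 genes (0.490%). In mutant HS 70 of 270 tested kinases fell, beside 14.8% of all genes, with a median of -0.12. The 2 members, RLK and AT1G61360, fell by 0.81 (limma adjusted p 0.042) and 0.88 (limma adjusted p 0.024). RLK was not called with no filter on low values (limma adjusted p 0.0637) or without any 1 of the 3 Control libraries or HS replicate 1 or 3 (0.0591 to 0.184). AT1G61360 was not called with the contrasted groups alone (limma adjusted p 0.0949) or without Control replicate 2 or HS replicate 1 or 3 (0.0831 to 0.136).

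The 5 iron uptake members joined a low mean level in Col0 heat to a mean above Control in salt. For bHLH38 and bHLH39, however, 1 Col0 Control library lay above every S library. Both genes also stood above Control in Col0 S+HS, at 0.53 and 0.79. IRT1 (AT4G19690), the main iron importer of the root, was at 17.2, 53.7 and 25.6 FPKM in Col0 Control, 3.88, 2.40 and 4.22 in HS, and 186.5, 207.0 and 125.6 in S. All heat libraries lay below and all salt libraries above Control. In Col0 S+HS it was at 23.1, 8.85 and 19.3 FPKM, far below S and overlapping Control. The name "lowered by heat only" thus covers, for IRT1, a level high in salt in every library.

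The mutant gave tests of this pattern. IRT1 was at 2.97, 16.3 and 8.63 FPKM in mutant Control, 214.8, 174.1 and 160.0 in S, and 16.3, 9.43 and 11.5 in S+HS. The salt group stood apart from both others. IRT1 rose by 4.39 in S (SE 0.54, limma adjusted p 9.4e-06) and fell by 3.80 in S+HS against S (SE 0.54, limma adjusted p 3.49e-05). Heat without salt gave 1.71, 4.07 and 1.02 FPKM, which overlapped Control, and a change of -1.52 (SE 0.54, limma adjusted p 0.0396). That call was lost with a pseudocount of 0.1 (limma adjusted p 0.0555), with no filter on low values (0.0647), with the contrasted groups alone (0.0927), and without Control replicate 2 or 3 or HS replicate 1 or 3 (0.0851 to 0.205).

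FRO2 (AT1G01580), the root ferric reductase, had 1.04, 3.19 and 2.18 FPKM in mutant Control and 0.533, 2.79 and 1.06 in HS. The groups overlapped and the change of -0.40 was not called. In S it stood at 60.5, 44.7 and 46.6 FPKM and in S+HS at 4.77, 3.00 and 4.65, so heat on salt brought every library below every S library. FRO2 rose by 4.09 in S (SE 0.40, limma adjusted p 1.16e-06) and fell by 3.33 in S+HS against S (SE 0.40, limma adjusted p 6.54e-06).

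CYP82C4 (AT4G31940), which hydroxylates iron-mobilising coumarins, followed FRO2. Its mutant levels were 0.318, 1.20 and 0.294 FPKM in Control, 30.6, 25.7 and 18.2 in S and 1.11, 0.913 and 1.16 in S+HS. The Control values were near the detection limit, where log2(FPKM + 1) understates change. CYP82C4 rose by 4.02 in S (SE 0.38, limma adjusted p 8.12e-07) and fell by 3.62 in S+HS against S (SE 0.38, limma adjusted p 1.28e-06).

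FRO2 and CYP82C4 were the 2 members called in the mutant's interaction test of the heat change with and without salt, beside 0.256% of all genes. A value of log2(FPKM + 1) cannot go below 0, so their mutant Control means of 2.14 and 0.605 FPKM bounded the fall without salt. The test cannot tell that bound from a different response to heat. The difference was -2.94 for FRO2 (SE 0.57, limma adjusted p 0.0383) and -3.43 for CYP82C4 (SE 0.53, limma adjusted p 0.0175). IRT1 had a difference of -2.28 that was not called. The count was 0 with a pseudocount of 0.1, and 0 without any one of Control replicate 3, S replicates 1 and 2 or S+HS replicates 2 and 3 of the mutant. It was 1 without Control replicate 1 or 2, HS replicate 2 or 3 or S replicate 3, and 3 without HS replicate 1. Against Col0 Control, where this difference was not tested, FRO2 stood at -2.21 in HS, 2.02 in S and -0.39 in S+HS. CYP82C4 stood at -2.01, 2.16 and -0.75. The Col0 fall from S to S+HS was thus similar to that from Control to HS for FRO2, and larger for CYP82C4.

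bHLH38 and bHLH39, the partners of FIT that drive FRO2 and IRT1, had 1 Col0 Control library far above the others. Neither was among the 5 genes that met the rule whichever library was left out. bHLH38 was at 25.6, 3.06 and 7.56 FPKM in Col0 Control and 6.15, 4.28 and 2.39 in HS, so the groups overlapped. In the mutant it was at 2.97, 5.42 and 5.06 FPKM in Control and 2.54, 4.68 and 4.203 in HS, and neither gene was called there. Both rose in mutant S, bHLH38 by 2.42 (SE 0.32, limma adjusted p 1.62e-05) and bHLH39 by 2.06 (SE 0.30, limma adjusted p 5.2e-05). Heat on salt lowered bHLH38 by 1.27 (SE 0.32, limma adjusted p 0.00553), while bHLH39 at -0.63 was not called.

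**Figure D5:**
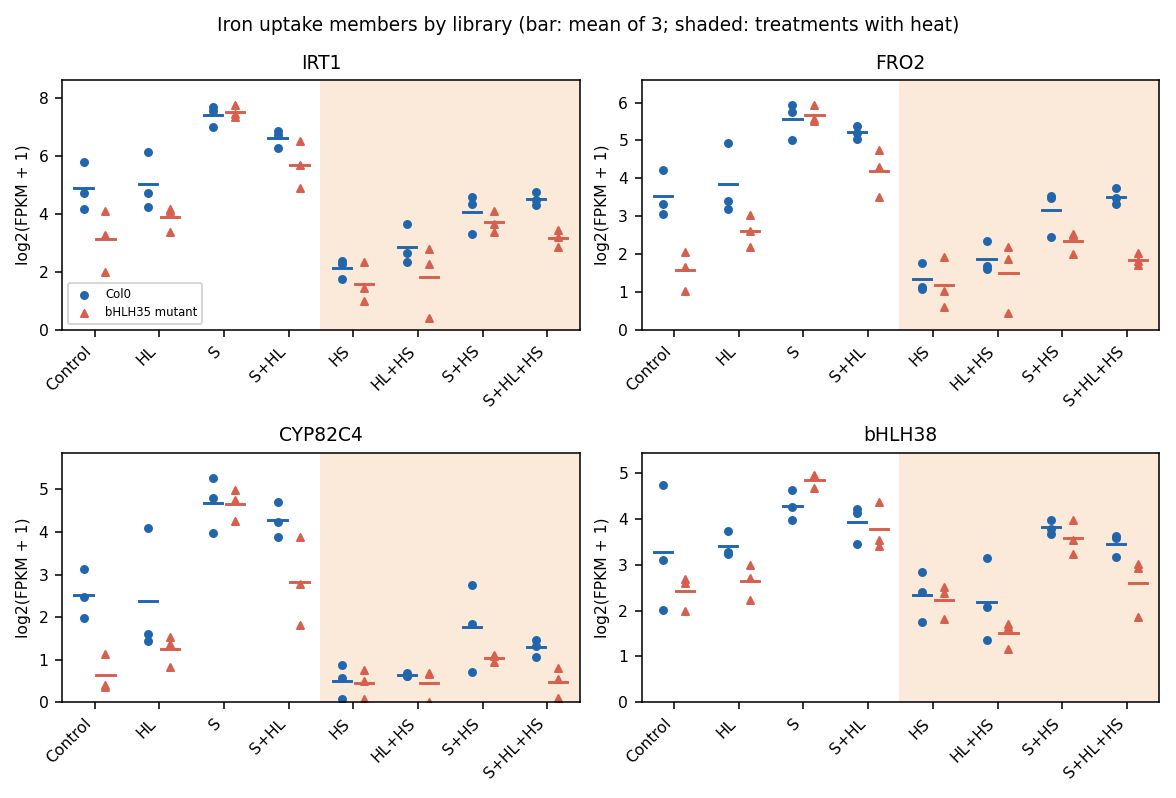
Log2(FPKM + 1) of IRT1, FRO2, CYP82C4 and bHLH38 in each library of Col0 (blue circles) and the bHLH35 mutant (red triangles), with bars for means of 3 and shading for treatments with heat. In the mutant all 3 S libraries lie above every Control and every heat library in each panel, and the Control libraries overlap those of HS in each panel.

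A list of 23 iron deficiency genes, drawn up after the members were seen, held 5 members and 5 other genes that were low in Col0 heat. In mutant HS 9 of 21 tested genes fell and 1 rose, beside 14.8% and 14.1% of all genes, with a median of -0.38. In mutant S 14 of 21 rose and none fell, beside 19.3% and 7.27% of all genes, with a median of 1.80. FIT (AT2G28160) rose in mutant S by 2.18 (limma adjusted p 4.82e-06) and also in HS by 0.69 (limma adjusted p 0.0435), and IRT2 was at -0.02 in mutant HS, so the list did not move as one in heat.

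Root markers moved with salt as well. The summed FPKM of 9 root marker genes was 48.8 to 53.7 in mutant Control, 135.7 to 166.5 in S and 125.0 to 151.3 in S+HS. In mutant HS it was 44.5 to 56.3, overlapping Control. Their part in the levels of the iron genes was not tested. The sums of leaf mesophyll and of phloem markers were lower in mutant HS than in Control. The phloem genes did not move together, as 1 was called lower and 1 higher. The 9 mesophyll genes summed to 46720 to 53100 FPKM against 58590 to 62550, and the 2 phloem genes to 49.6 to 50.3 against 75.2 to 107.1, and their part in the members' falls was not tested.

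Over all members, 19 rose and none fell in mutant S, beside 19.3% of all genes called higher and 7.27% called lower. The median member stood at 0.39 against 0.13 for all genes. Under median-of-ratios scaling 14 members were higher, beside 14% of genes, and 2 were lower. Without the 5 iron uptake members 14 rose. In mutant S+HL 14 members rose beside 24.8%, and 2 fell beside 13.1%, namely AT5G42440 and AT5G06060. Without Control replicate 3, S+HL replicate 2 or S+HL replicate 3 of the mutant no member fell there, and without Control replicate 1 or 2 there was 1.

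Some members rested on single libraries or on overlapping genes. The precursor of MIR157c, a microRNA that targets SPL factors, was listed at 0, 0 and 31.3 FPKM in Col0 Control. It was at 0 in all HS and HL+HS libraries of both genotypes, so it met the rule through 1 Control library. The same held for the noncoding AT3G04695, at 0, 0 and 6.64 FPKM in Col0 Control and 0 in Col0 HS and HL+HS. The long noncoding RNAs AT3G08470, AT4G08705, AT3G01295 and AT3G04695 lay wholly inside other genes. The first 3 of these were at -0.11, 0.08 and 0.29 in mutant HS and were not called, and AT3G04695 did not pass the filter in the mutant. PIRL2, an intracellular leucine-rich repeat protein, was at -0.14 in mutant HS and was not called.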

How the data were processed

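Transcript levels were the authors' FPKM values, deposited as 1 table per genotype, and the tables may have been normalized separately, so genotypes were not tested against each other. Per the labels' protocols, reads were trimmed with Trim Galore 0.6.4 and checked with FastQC 0.11.9. Per the submitters' processing notes, HISAT2 2.2.1 and the TAIR10 build were used. The FPKM tool, its annotation and its strand setting are not given in the sources used here. Identifiers on 2 lines were summed (2 genes), and names and positions came from RefSeq TAIR10.1, where 32539 of 32824 identifiers matched.

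Members were found by the rule in Col0. The members and gene lists were chosen with earlier results of these data known. A gene was tested where 3 or more libraries of the genotype reached 1 FPKM (20744 genes in Col0 with all 63 members, 20675 in the mutant with 62). The test was limma 3.58.1 under R 4.3.3, applied to log2(FPKM + 1) with a mean-variance trend, 1 fit over the 24 libraries of a genotype, and Benjamini-Hochberg adjustment over all genes tested, called at 0.05. Fold changes on this scale understate the change of low genes. The fit was tested on simulated data.

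Depth was read from the steps of low FPKM values of 12639 genes with a spliced length of at least 800 bases, where 92.1% to 97.4% of values were within 0.1 of a whole fragment. Floors cover counting error only. Named genes followed fixed ranks of size, level and list, and exceptions are stated. Alternatives were a pseudocount of 0.1, no filter, a mean of at least 5 FPKM, other scalings, no trend, a replicate block, a fit of the contrasted groups and leaving out each library. Tables were handled with Python 3.11.15 and pandas 2.3.3.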

Additional observations from a re-analysis of the deposited data

Results flagged for a closer look

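FRO2 and CYP82C4 were called in limma's interaction test in the mutant, which sets the heat change with salt (S+HS against S) beside that without it (HS against Control). The log2 difference was -2.94 for FRO2 (adjusted p 0.0383) and -3.43 for CYP82C4 (adjusted p 0.0175). For both genes all 3 S+HS libraries lay below all 3 S libraries, while HS and Control overlapped. Neither was called with a pseudocount of 0.1, nor without any one of mutant Control replicate 3, S replicate 1 or 2, or S+HS replicate 2 or 3. Mutant Control means were 2.14 FPKM for FRO2 and 0.605 FPKM for CYP82C4, levels at which log2(FPKM + 1) understates change. Values on that scale cannot go below 0, so these levels bounded the fall that heat without salt could show. The test cannot tell that bound from a different response to heat. Col0 FRO2, for which the difference was not tested, stood at -2.21 in HS, 2.02 in S and -0.39 in S+HS against Control.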

How the results depend on the processing

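Counts of members called lower stayed within 1.5 times under every planned setting other than leaving out a library for mutant HS, HL+HS, S+HS against S and both S+HL+HS against S+HL comparisons. Leaving out 1 library at a time gave 23 to 37 in mutant HS, 25 to 36 in HL+HS, 32 to 38 in S+HS against S, 9 to 32 in mutant and 14 to 26 in Col0 S+HL+HS against S+HL. It gave 1 to 7 lower in HL, 0 lower and 13 to 18 higher in S, 0 to 2 lower in S+HL, 0 to 2 for the heat difference with high light, 0 to 3 for that with salt, and 38 to 114 genes by the rule. The 4 members lower in HL became 1 with no filter or with the contrasted groups alone, and 2 with a mean of at least 5 FPKM, median-of-ratios or common-sum scaling or no trend. The 0 lower in S became 2 with median-of-ratios scaling and 1 with the contrasted groups alone, and the 2 lower in S+HL became 1 with a pseudocount of 0.1, no filter, a mean of at least 5 FPKM, common-sum scaling or no trend. The heat difference with high light gave 1 member under median-of-ratios scaling, and that with salt gave 0 with a pseudocount of 0.1 and 1 with no filter, a mean of at least 5 FPKM or the contrasted groups alone. The rule gave 198 genes with a pseudocount of 0.1 (59 shared), 16 with a heat limit of -1.0 and 47 under median-of-ratios scaling (46 shared). The cause of these shifts was not tested.

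Leaving out 1 library turned the sign of some uncalled values. In mutant HS the log2 change ranged from -0.42 to 1.09 for AT4G08705, -0.34 to 0.64 for AT3G01295, -0.33 to 0.13 for AT3G08470, -0.28 to 0.10 for PIRL2, -0.59 to 0.074 for bHLH39, -0.40 to 0.020 for bHLH38 and -0.34 to 0.065 for CYP82C4. In Col0 S+HL+HS against S+HL it ranged from -0.69 to 0.80 for AT4G08705 and -1.21 to 1.33 for MIR157c.

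In the 8 comparisons tested, replicate numbers did not pair the libraries: same-numbered deviations correlated between -0.136 and 0.137. Between HL and S+HL, and between genotypes in HL or S+HL, the correlations were -0.0795 to 0.401, with replicate 2 always under 0.1. With the replicate number as a block, 37 members were lower in mutant HS, 36 in HL+HS, 41 in S+HS against S, 31 in mutant and 26 in Col0 S+HL+HS against S+HL. Depth limits members of low level, and 3 libraries per group limit every test.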
